A study of Arabidopsis thaliana with 48 samples.

Results

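Long noncoding transcripts encoded on the 5 nuclear chromosomes of Arabidopsis thaliana were followed in rosette leaves of an m6A methylase mutant and of wild type, with and without drought. The transcripts were taken from the deposited tables of noncoding RNA counts of 12 poly(A) RNA libraries. A row of these tables was a member if it was annotated on chromosomes 1 to 5, spanned more than 200 bases and had a summed count of 30 or more over the 12 libraries. The row with the highest summed count, an 18S ribosomal RNA, was left out. These criteria kept 375 of 5178 rows. The members were thus chosen by length, position and summed count, which is blind to group and is given here as a description only. At the edge of the criterion, 4 members had exactly 30 counts and 5 rows just outside had 29. The word nuclear refers to where the transcripts are encoded, since their place in the cell was not measured.

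The study grew Col-0 plants and a mutant of MTA, an enzyme that writes m6A on mRNA, in which an MTA transgene is driven by the ABI3 promoter (mta ABI3:MTA). That promoter is active in the embryo, so the line (mta) is a model of low MTA after embryogenesis and is not a null. Plants were either left without water for 12 days (drought) or watered throughout (control). The 4 groups were therefore mta drought, mta control, WT drought and WT control, all of Col-0 background and rosette leaf tissue, with 3 libraries per group and assay. Whether the 3 libraries of a group are from separate plants is not given in the labels, and p-values then measure only the spread among the samples, which may be technical. Of the 4 assays and 48 libraries, the poly(A) RNA libraries kept back as input and the matched libraries of RNA bound by an m6A antibody were used here.

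Long noncoding RNAs are transcripts that are not known to be translated. Many lie between genes, and others are natural antisense transcripts, which are read from the strand opposite a gene. TAS transcripts are a special class that is cut by a microRNA-guided Argonaute protein, copied by RDR6 and processed by DCL4 into trans-acting small interfering RNAs, which in turn silence other mRNAs. m6A is a methyl mark on adenosine that is placed co-transcriptionally on poly(A) RNA, in plants mostly near the 3′ end, by a complex that contains MTA.

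The targeted gene was read first. MTA (AT4G10760) had 10.6, 8.24 and 9.77 CPM, the counts per 1e6 of the gene table's total times its TMM scaling factor, in mta drought libraries and 9.73, 6.96 and 7.39 CPM in mta control libraries, against 25.9, 25.2 and 18.9 CPM in WT drought and 17.7, 18.2 and 18.9 CPM in WT control. Every mta library was below every WT library. The log2 fold change of mta over WT was -1.28 ± 0.18 (SE) in drought and -1.16 ± 0.19 in control, with adjusted p = 3.1e-06 and 9.6e-05 by edgeR's quasi-likelihood test.

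The input libraries held between 1504013 and 5503037 counts in genes, and the members took 0.226% to 0.485% of these totals. WT control 3 was the shallowest library and stood apart from the others. Its 18S row amounted to 17.9% of its gene total, against 4.62% to 11.2% in the other libraries, its plastid genes to 11.7% against 1.93% to 4.36%, and 25 members were at least 4-fold above the mean of WT control 1 and 2. Results that rest on it are given with and without it. All 4 leaf markers were counted in each library, but their summed level was 9763 to 10730 CPM in mta drought and 35056 to 40037 CPM in mta control, and 5902 to 6059 CPM in WT drought and 27166 to 30240 CPM in WT control. Seed markers summed to at most 0.703 CPM, flower and meristem markers to 0.455 to 9.92 CPM and root markers to 32.4 to 197 CPM. Of the 4 root markers, only 2 had a count in mta drought and only 1 in each other group. PYK10 was the only root marker that passed the count filter, so this level does not stand for root markers at large. The part of tissue makeup in the results below was not tested, and in whole leaves fewer cells of a type and less RNA per cell cannot be told apart.

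The 375 members spanned 204 to 9515 bases, with a median of 1253 bases. Their annotated types were lncRNA for 264, ncRNA for 95, snRNA for 7, snoRNA for 6, antisense RNA for 2 and rRNA for 1. By position, 134 overlapped no gene, 186 overlapped a gene only on the opposite strand, and 55 overlapped a gene on the same strand. Only 16 carried a symbol, among them TAS1A, TAS1B, TAS1C, TAS2, TAS3 and GUT15. Reads were counted by strand, which separates a transcript from its antisense partner except for reads assigned to the wrong strand. The part of such reads was not tested. A read within a same-strand overlap was also counted for the gene in the separate gene table. Levels were low, with a median of 2.79 CPM over the 12 libraries and a range of 0.552 to 360 CPM. Per kilobase of span, the median level was 3.31 CPM for tested members and 7.72 CPM for tested genes. The 5 highest members held 29.7% of all member counts, 65 members were above 10 CPM and 63 were below 1 CPM.

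A count filter left 255 members for testing, and the 120 not tested had summed counts of 30 to 100. Since 27 of the 255 had over 50% of their level in 1 group, some may have passed through the group in which they are high, and counts over the tested members are descriptions. Their median summed count was 235, against 1015 for the 17666 genes tested. On simulated counts of drought in WT, with the same spread set for every row, 84.2% of 2-fold changes were recovered in the noncoding table and 79.4% in the gene table. Of 127 unchanged noncoding rows 3.15% were called, and of 16985 unchanged genes 0.0471%. Changed rows made a far larger part of the noncoding table (95 at 2-fold and 93 at 4-fold of 315 fitted) than of the gene table (97 and 96 of 17178). The rates of the 2 tables can therefore not be compared. The spread was fixed in advance and not estimated from these data, so the rates do not give the power for the real members.

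In both genotypes more of the tested transcripts rose than fell in drought. In mta, 85 of 255 rose and 26 fell (33.3% and 10.2%), where 35.1% of genes rose and 35.3% fell, and 9.76% and 8.54% of the 82 other noncoding rows tested. In WT, 69 rose and 30 fell (27.1% and 11.8%), where 32.6% of genes rose and 35.3% fell, and 3.66% and 8.54% of the other noncoding rows. The share of members that rose was thus near that of genes, and the share that fell was near that of the other noncoding rows. The median log2 fold change of the tested members was 0.42 in mta and 0.48 in WT, and with the 2 and 3 members that have a group at 0 set to their bound it was 0.42 and 0.47. The median over genes in WT was -0.01. Among the calls, the median log2 fold change of those that rose was 1.42 in mta and 1.50 in WT, and of those that fell -1.58 in mta and -1.92 in WT. The level was also summed over members other than rRNA, snRNA, snoRNA and those beside a ribosomal RNA row. This sum was 4229 ± 39.4 CPM in mta drought and 2508 ± 167 CPM in mta control, against 3657 ± 128 CPM in WT drought and 2027 ± 63.5 CPM in WT control (SD, n = 3). The drought libraries of each genotype lay above all of its control libraries. The balance depended on the scale: with the noncoding tables' own totals and TMM factors, 59 rose and 38 fell in mta, and 43 rose and 38 fell in WT. That scaling moved the median log2 fold change by -0.26 in mta and by -0.35 in WT. Without WT control 3, 98 rose and 37 fell in mta, and 84 rose and 32 fell in WT.

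**Figure D1:**
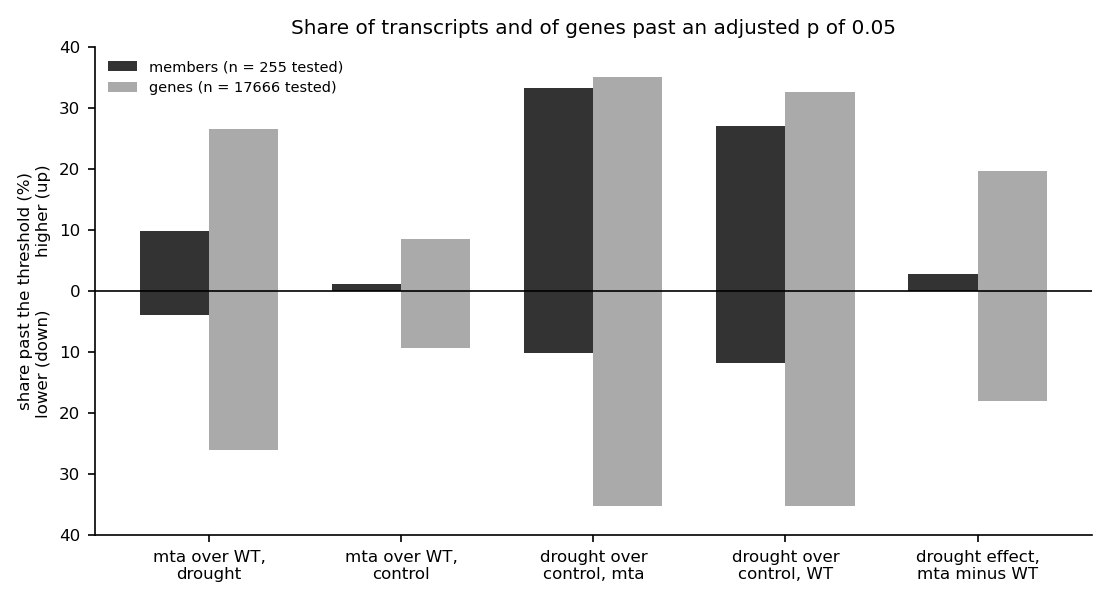
Bars give the share (%) of the 255 tested transcripts (black) and of the 17666 tested genes (grey) that were higher (up) or lower (down) at an adjusted p of 0.05, for each of the 5 contrasts on the x axis. In drought 33.3% of the transcripts were higher in mta and 27.1% in WT, near the 35.1% and 32.6% of genes, while lower calls made 10.2% and 11.8% of the transcripts and 35.3% of genes in each.

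Of the 6 members with the highest level per length, 4 rose in drought in both genotypes, and the other 2, AT3G06355 and AT2G08770, were not called with all libraries. AT2G14878, an ncRNA at 2:6392167-6393042 on the plus strand (876 bases, TAIR10), had the second highest level per length. It reached 450, 414 and 384 CPM in mta drought against 105, 135 and 134 CPM in mta control, and 365, 344 and 395 CPM in WT drought against 79.2, 87.7 and 53.1 CPM in WT control. Drought and control libraries did not overlap in either genotype. The log2 fold change was 1.74 ± 0.21 in mta (adjusted p = 6.99e-05) and 2.32 ± 0.22 in WT (adjusted p = 6.31e-06).

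AT1G69252, a 927-base ncRNA at 1:26036733-26037659 on the plus strand, moved in the same direction. Its level was 268, 272 and 271 CPM in mta drought against 49.6, 66.4 and 65.8 CPM in mta control, and 278, 259 and 294 CPM in WT drought against 60.6, 66.5 and 41.2 CPM in WT control. The lowest drought library was far above the highest control library in both genotypes. The log2 fold change was 2.16 ± 0.21 in mta (adjusted p = 1.51e-05) and 2.29 ± 0.21 in WT (adjusted p = 5.61e-06). It lies 1245 bases from AFP1, which encodes a protein that binds the abscisic acid regulator ABI5 and which rose by 4.25 in mta and 4.33 in WT on the log2 scale.

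AT5G48412, 717 bases at 5:19623516-19624232 on the minus strand, had 211, 221 and 200 CPM in mta drought against 75.4, 83.5 and 92.3 CPM in mta control, and 193, 170 and 176 CPM in WT drought against 51, 62.6 and 62.9 CPM in WT control. Again no drought library reached down to a control library. It rose by 1.33 ± 0.16 in mta (adjusted p = 7.39e-05) and by 1.61 ± 0.17 in WT (adjusted p = 1.48e-05) on the log2 scale.

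GUT15 (AT2G18440, 2:7995729-7997198, minus strand), a transcript first described for its short half-life, was also among the higher members. Its level was 380, 357 and 354 CPM in mta drought against 165, 188 and 200 CPM in mta control, and 220, 220 and 227 CPM in WT drought against 123, 126 and 106 CPM in WT control. Each group was separate from the next, and mta was above WT under both conditions. The drought effect was 0.98 ± 0.16 in mta (adjusted p = 0.000518) and 0.90 ± 0.16 in WT (adjusted p = 0.000929) on the log2 scale. The difference of mta over WT passed the threshold in drought, at 0.71 ± 0.16 (adjusted p = 0.0103), and not in control, at 0.63 ± 0.16 (adjusted p = 0.0666). The drought call was lost when the trend of each library with gene span was removed (log2 0.34, adjusted p = 0.16), with no filter on low counts, and without WT drought 1 or mta drought 1. With no filter, the drought effect in WT had an adjusted p of 0.0529.

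The member with the highest level per length, AT3G06355 (3:14199575-14200076), overlaps a row annotated as ribosomal RNA on the same strand. It had 228, 205 and 246 CPM in mta drought and 234, 267 and 133 CPM in mta control, and 436, 445 and 481 CPM in WT drought and 142, 127 and 1377 CPM in WT control. The WT control mean rests on replicate 3 alone. No contrast of it passed the threshold with all libraries, while without WT control 3 its drought effect in WT was 1.78 on the log2 scale (adjusted p = 5.1e-05). The snoRNA AT2G08770, on the same strand as AT2G35750, had the same shape, with 3.61, 3.03 and 95.7 CPM in WT control and 13.9 to 54 CPM in all other libraries. Without WT control 3 its drought effect in WT was 3.83 (adjusted p = 6.5e-07).

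**Figure D2:**
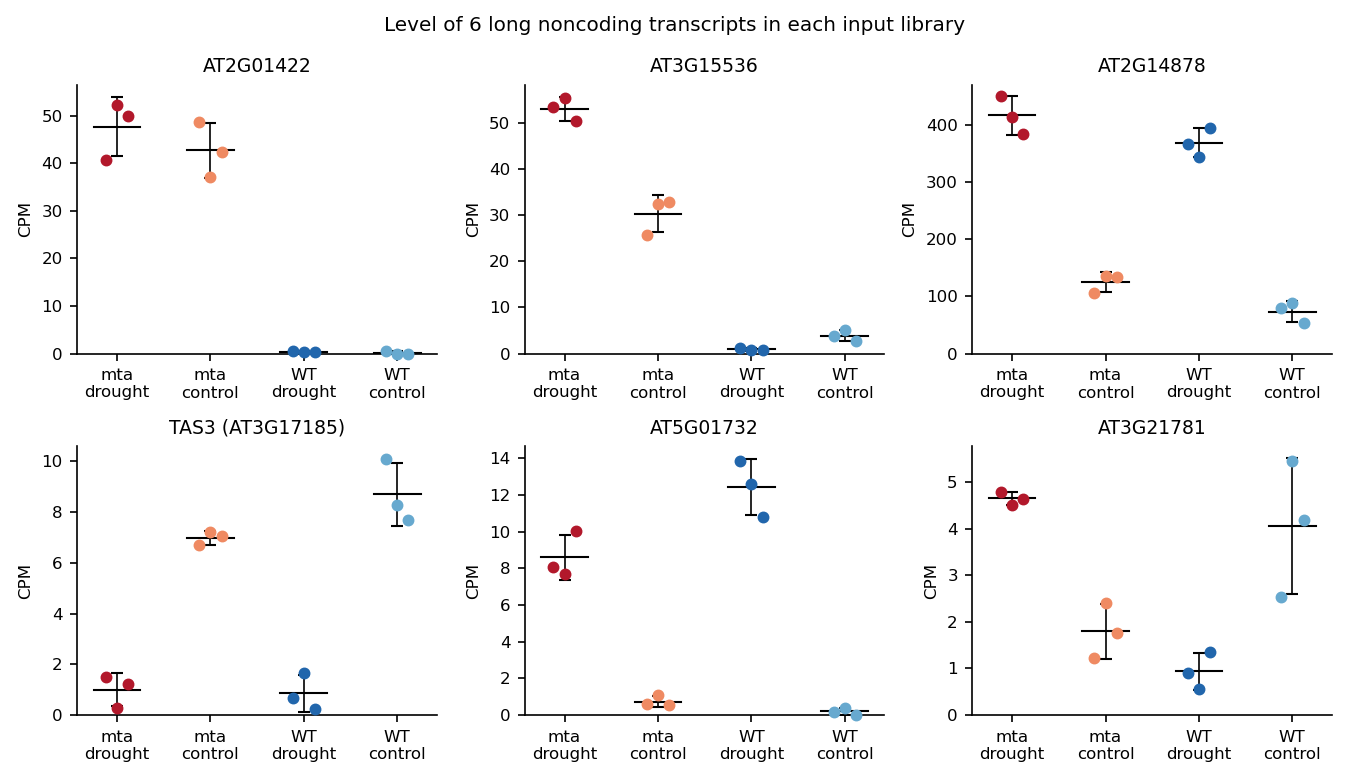
Level (CPM, y axis from 0) of 6 transcripts in each input library, with points for libraries, a horizontal line for the group mean and bars for the SD of 3 libraries. AT2G01422 and AT3G15536 are high in the 6 mta libraries and low in the 6 WT libraries, AT2G14878 and AT5G01732 are high in drought, TAS3 is low in drought, and AT3G21781 is high in mta drought and low in WT drought.

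Larger fold changes were seen among members that were near 0 in control. AT1G21529, 755 bases at 1:7543924-7544678 on the minus strand with no gene overlapping it, had 4.04, 6.91 and 5.37 CPM in mta drought against 0.203, 0 and 0 CPM in mta control, and 3.87, 3.84 and 4.5 CPM in WT drought against 0.361, 0 and 0 CPM in WT control. It was thus counted in every drought library and in 1 control library per genotype. With so few control counts the fold is given as a ratio of counts, which was 77.7 in mta (exact 95% interval 13.5 to 3118, adjusted p = 5.64e-05) and 24.3 in WT (6.40 to 206, adjusted p = 0.000262). These intervals cover counting error only. AT1G67105, another transcript of the same list of noncoding RNAs, was too low to test, at 0 to 1.77 CPM in any library.

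AT5G01732, a 3588-base lncRNA at 5:272839-276426 on the plus strand, lies opposite SCAR4, a subunit of the complex that activates actin nucleation. It had 8.08, 7.71 and 10 CPM in mta drought against 0.608, 1.07 and 0.528 CPM in mta control, and 13.9, 12.6 and 10.8 CPM in WT drought against 0.18, 0.404 and 0 CPM in WT control. The groups did not overlap. The transcript rose by 3.56 ± 0.33 on the log2 scale in mta (adjusted p = 1.32e-05) and was 49.3-fold higher in WT drought by counts (exact interval 16.6 to 242, adjusted p = 1.6e-06). SCAR4 itself fell by 1.94 in mta and by 0.91 in WT on the log2 scale.

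AT4G06410, opposite AT4G16670, had 10.9, 10.6 and 7.81 CPM in mta drought against 1.82, 0.535 and 0.528 CPM in mta control, and 24.8, 21.4 and 22.7 CPM in WT drought against 1.98, 0.808 and 1.4 CPM in WT control. It rose in both genotypes and was lower in mta drought than in WT drought, with no overlap. The log2 fold changes were 3.29 ± 0.39 in mta (adjusted p = 6.32e-05) and 3.99 ± 0.38 in WT (adjusted p = 7.04e-06) for drought, and -1.23 ± 0.30 for mta over WT in drought (adjusted p = 0.0135). The last call was lost without WT drought 1 or 3 or mta drought 2 or 3, with adjusted p up to 0.0690. AT3G03535, opposite AT3G17800, showed the same order, with 1.77, 2.13 and 2.2 CPM in mta drought and 5.91, 5.21 and 4.5 CPM in WT drought against at most 0.203 CPM in any control library. Its count was 1.1% of that of AT3G17800, and its call of mta against WT in drought, -1.35 ± 0.35 (adjusted p = 0.0238), was lost under many alternatives, among them leaving out any 1 drought library, with adjusted p up to 0.122. AT1G09257, opposite AT1G71490, was called in WT, with 1.26, 1.6 and 0.733 CPM in mta drought against 1.01, 0 and 0.176 CPM in mta control, and 6.37, 3.56 and 4.73 CPM in WT drought against 0.361, 0.404 and 0 CPM in WT control. Its log2 fold change in WT was 3.78 ± 0.68 (adjusted p = 0.00101), and it was lower in mta drought than in WT drought, by -2.02 ± 0.54 (adjusted p = 0.0249). That second call was lost without WT drought 1 or 3 or any 1 mta drought library, with adjusted p up to 0.127. Whether its drought effects differed between the genotypes did not pass the test of the difference.

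AT1G09297, opposite AT1G72070, was called in mta. It had 6.31, 7.18 and 8.3 CPM in mta drought against 0.81, 0.803 and 0.704 CPM in mta control, and 3.41, 1.37 and 4.73 CPM in WT drought against 1.44, 1.01 and 2.8 CPM in WT control. The mta groups were separate and the WT groups overlapped, with 3.19 ± 0.45 in mta (adjusted p = 0.000181) and 1.10 ± 0.46 in WT (adjusted p = 0.0861). AT1G05347 overlaps EGY3, which encodes a plastid protein related to site-2 proteases, on the same strand. It had 11.6, 12 and 9.52 CPM in mta drought against 0.176 to 1.34 CPM in mta control, and 19.1, 14.5 and 18.7 CPM in WT drought against 0 to 0.541 CPM in WT control. It rose by 3.90 ± 0.43 in mta (adjusted p = 3.63e-05) and 5.60 ± 0.50 in WT (adjusted p = 5.48e-06), and EGY3 by 4.65 and 5.33 on the same scale, with reads of the shared span counted for both.

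Members that fell in drought included some that were counted in control only. AT1G78865 had 0 counts in the 3 mta drought and the 3 WT drought libraries, against 1.62, 2.14 and 3.17 CPM in mta control and 2.53, 2.42 and 4.19 CPM in WT control. Taking a floor of 3 counts over the group, it was at least 9.33-fold lower in mta drought (adjusted p = 0.00148) and at least 11.2-fold lower in WT drought (adjusted p = 0.000994). AT1G04425 had 0, 0.266 and 0.244 CPM in mta drought and 0 in WT drought, against 2.81 to 4.46 CPM in mta control and 2.1 to 3.25 CPM in WT control. It was 20.6-fold lower by counts in mta drought (exact interval 5.41 to 175, adjusted p = 0.000431) and at least 12.2-fold lower in WT drought (adjusted p = 0.000207). AT3G59765 had 0 in mta drought and 0, 0.822 and 0 CPM in WT drought, against 1.34 to 2.11 CPM in mta control and 2.42 to 3.49 CPM in WT control, which is at least 7.41-fold lower in mta drought (adjusted p = 0.00446) and 11.5-fold lower in WT drought (exact interval 3.61 to 58.7, adjusted p = 0.00839). AT1G18415, opposite a gene with 8 counts in all, was measured more firmly, with 1.26, 1.33 and 1.47 CPM in mta drought against 7.29, 6.69 and 7.91 CPM in mta control, and 2.27, 2.19 and 2.25 CPM in WT drought against 8.84, 8.69 and 9.78 CPM in WT control. It fell by 2.41 ± 0.23 in mta and by 1.99 ± 0.21 in WT on the log2 scale (adjusted p = 1.32e-05 and 1.68e-05).

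Across the 255 tested members, 47 rose in both genotypes and 15 fell in both. A call in mta and not in WT was made for 35 that rose and 11 that fell, and a call in WT and not in mta for 22 that rose and 12 that fell. The remaining 3, AT1G69572, AT3G15536 and AT3G21781, rose in mta and fell in WT, and 110 were called in neither. The log2 fold changes of the 2 genotypes correlated with r = 0.776 and rho = 0.731 over the 255 members. The WT and mta effects have no library in common. The members were measured in the same libraries and are not independent of each other. The 2 effects were within 0.5 on the log2 scale for 115 members and within 1 for 195.

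**Figure D3:**
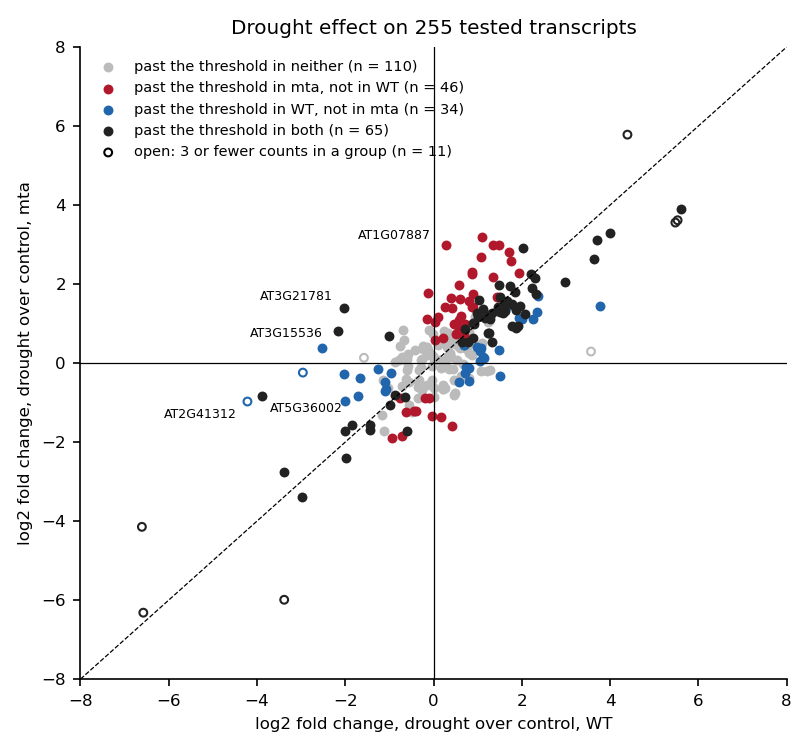
Each point is 1 of the 255 tested transcripts, with the log2 fold change of drought over control in WT on the x axis and in mta on the y axis. Colours mark the genotypes in which it passed the threshold, and open circles mark the 11 with 3 or fewer counts in a group. The dashed line marks equal effects. The 2 effects were within 0.5 for 115 transcripts and within 1 for 195 (r = 0.776).

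TAS3 (AT3G17185, 3:5861491-5862437, plus strand, 947 bases) is the source of small RNAs that target the auxin response factors ARF3 and ARF4, and it fell in drought. Its level was 1.51, 0.266 and 1.22 CPM in mta drought against 6.69, 7.23 and 7.03 CPM in mta control, and 0.682, 1.64 and 0.225 CPM in WT drought against 10.1, 8.28 and 7.69 CPM in WT control. All 6 drought libraries were below all 6 control libraries. The log2 fold change was -2.75 ± 0.47 in mta (adjusted p = 0.000749) and -3.40 ± 0.48 in WT (adjusted p = 0.000186).

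None of TAS1A, TAS1B, TAS1C and TAS2, whose small RNAs target pentatricopeptide repeat and HTT genes, passed the threshold in any of the 5 contrasts. TAS2 had 9.76 ± 2.03 CPM in mta drought and 6.39 ± 0.714 CPM in mta control, against 6.41 ± 1.88 CPM in WT drought and 5.23 ± 2.32 CPM in WT control. TAS1C averaged 4.42 ± 0.582 CPM in mta drought and 2.45 ± 0.365 CPM in mta control, with a log2 fold change of 0.85 (adjusted p = 0.0514), and 3.01 ± 1.14 CPM in WT drought and 3.29 ± 0.681 CPM in WT control (SD, n = 3). At these levels a change of TAS1 or TAS2 may have been missed. TAS4, TAS3B and TAS3C were below the count minimum and are not members.

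The machinery and targets of this pathway were read from the gene table. Of 13 tested genes, 4 rose and 9 fell in mta, beside 35.1% and 35.3% of all genes. In WT 3 rose and 6 fell, beside 32.6% and 35.3% of all genes. In WT, AGO7, the Argonaute that acts on TAS3, fell by 1.85, RDR6 by 1.21 and DCL4 by 0.76 on the log2 scale. The TAS3 targets ARF3 and ARF4 fell by 1.30 and by 0.84 in WT. HTT2, a target of TAS1 small RNAs, rose by 2.59 in WT, and the double-stranded RNA binding protein gene DRB4 by 1.38. Of the others in WT, MYB113 fell by 3.35, PAP2 rose by 2.07, and AGO1, SGS3, ARF2 and PAP1 were not called. In mta, AGO7, RDR6, DCL4, ARF3 and ARF4 fell by 1.15, 1.65, 1.33, 1.82 and 1.33. MYB113, AGO1, SGS3 and ARF2 also fell in mta, and HTT2, DRB4, PAP1 and PAP2 rose.

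Genes for RNA decay enzymes that act on noncoding transcripts moved differently in the genotypes. Of 10 tested genes, 7 fell and 3 were not called in mta drought against mta control, beside 35.1% of all genes that rose and 35.3% that fell. In WT drought against WT control 5 rose and 1 fell, beside 32.6% and 35.3% of all genes. In mta, UPF1, the helicase of nonsense-mediated decay, fell by 1.28, RRP44A, a catalytic subunit of the exosome, by 0.79, and the exoribonuclease genes XRN2, XRN4 and XRN3 by 0.68, 0.57 and 0.33. MTR4 and HEN2, helicases of the nuclear exosome, fell by 0.56 and 0.53 in mta, while their log2 fold changes were 0.46 and 0.27 in WT, where both rose. In WT, FRY1, a nucleotidase whose loss inhibits the XRN enzymes, fell by 1.21. The difference of the drought effects passed the threshold upward for 1 and downward for 8 of the 10 genes, beside 19.6% upward and 18% downward over all genes.

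Opposite-strand pairs were then compared with their genes. The gene covered a median of 86.6% of the length of such a member, and the member's count was a median of 44.9% of the gene's count, while 64 members exceeded their gene. Of 75 pairs with both partners tested, member and gene both rose in 12 pairs in mta and 9 in WT, and both fell in 7 in mta and 9 in WT. The member rose while the gene fell in 10 pairs in mta and 12 in WT, and the reverse was seen in 1 pair in each genotype. Over all tested genes 35.1% rose and 35.3% fell in mta and 32.6% and 35.3% in WT, while more members rose than fell. Whether the pair counts depart from these shares was not tested. The correlation of the log2 fold changes across these pairs was r = 0.255 in mta and 0.161 in WT (rho 0.168 and 0.162). In the 30 same-strand pairs it was r = 0.823 in mta and 0.912 in WT, where shared reads enter both values. By class, 36 rose and 15 fell of 124 tested opposite-strand members in mta (29.0% and 12.1%) and 33 rose and 15 fell in WT (26.6% and 12.1%). These shares were near those of all 255 tested members, 33.3% and 10.2% in mta and 27.1% and 11.8% in WT. Of 94 members with no overlap, 37 rose and 6 fell in mta (39.4% and 6.4%), and 26 rose and 13 fell in WT (27.7% and 13.8%).

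**Figure D4:**
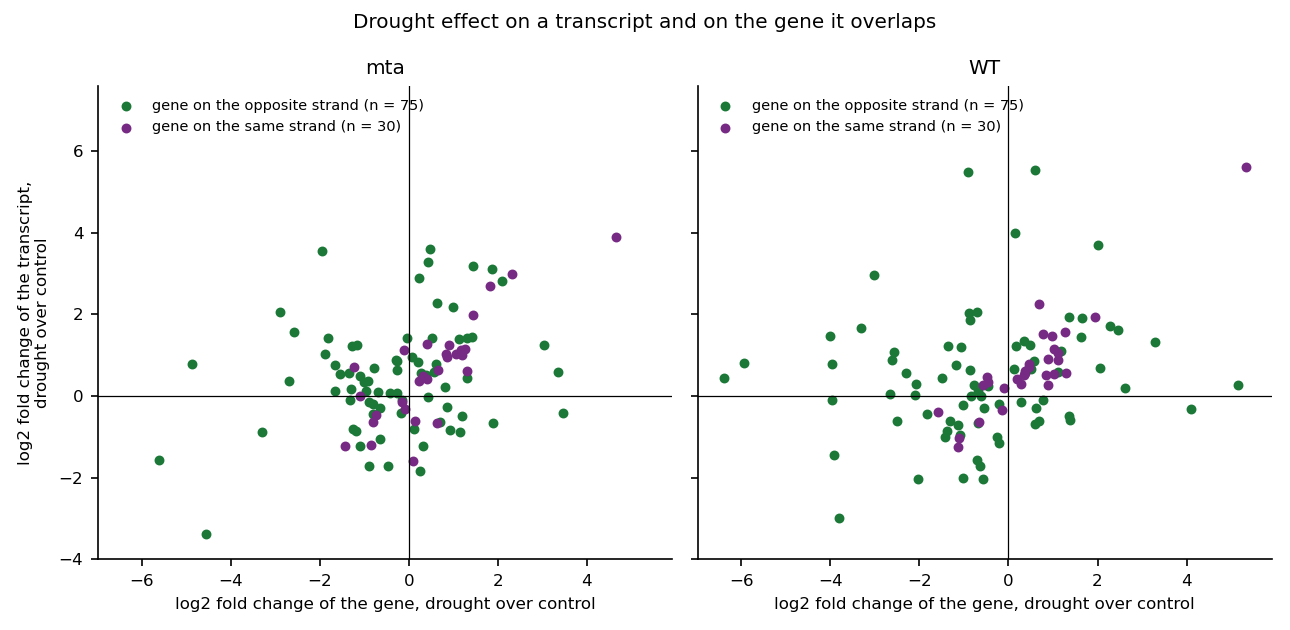
Points are pairs of a transcript and the gene it overlaps, with the log2 fold change of drought over control of the gene on the x axis and of the transcript on the y axis, in mta (left) and WT (right). Same-strand pairs (purple, n = 30) lie along a line with r = 0.823 in mta and 0.912 in WT, and opposite-strand pairs (green, n = 75) are scattered with r = 0.255 and 0.161.

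One pair illustrates a transcript that followed a strongly changed gene. AT3G22121 lies opposite CWLP, a cell wall linker protein gene, and had 0.2% of its count. The transcript had 0.757, 0.798 and 0 CPM in mta drought against 8.51, 4.55 and 3.69 CPM in mta control, and 0, 1.1 and 0.225 CPM in WT drought against 2.53, 3.64 and 4.89 CPM in WT control. It fell by 3.38 ± 0.73 in mta (adjusted p = 0.00333) and by 2.99 ± 0.81 in WT (adjusted p = 0.0147), and CWLP by 4.56 and by 3.80 on the log2 scale. The part of reads assigned to the wrong strand in this value was not tested. Leaving out the 10 tested opposite-strand members below 5% of their gene's count kept every count over the members within 1.5 times.

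Between the genotypes, most members did not pass the threshold. In control, 3 of 255 were higher in mta and 0 lower, where 8.51% of genes were higher and 9.28% lower, and 0.0% and 1.22% of the other noncoding rows. At an unadjusted p under 0.05, 33 were higher and 5 lower, and DESeq2 called 11 higher and 0 lower. Without WT control 3, 15 were higher and 1 lower, and in a joint fit with the genes 16 and 1. In drought, 25 were higher in mta and 10 lower (9.80% and 3.92%), where 26.6% of genes were higher and 26.1% lower. These shares were near those of the other noncoding rows, 9.76% and 3.66%. The lower calls in drought numbered 3 to 6 without any 1 of WT drought 1, 2 or 3 or mta drought 1 or 2. Without WT control 3, which enters this contrast only through the shared spread and the filter, 40 were higher and 22 lower. Once the span trend was removed the balance turned, with 18 higher and 28 lower.

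AT2G01422, an ncRNA at 2:183940-184734 on the plus strand (795 bases, no gene overlapping), differed most between the genotypes. Its level was 40.6, 52.4 and 50.1 CPM in mta drought and 48.6, 37.2 and 42.4 CPM in mta control, against 0.455, 0.274 and 0.225 CPM in WT drought and 0.541, 0 and 0 CPM in WT control. The transcript was thus at 37.2 CPM or more in all 6 mta libraries and near 0 in all 6 WT libraries. In drought the log2 fold change of mta over WT was 7.09 ± 0.47 (adjusted p = 6.4e-07). In control the counts were 620 in mta and 3 in WT, a ratio of 172 (exact interval 58.5 to 835, adjusted p = 1.87e-06). The gene nearest to it, 175 bases away, is PIN4, an auxin efflux carrier, whose log2 fold change of mta over WT was 0.24 ± 0.14 in drought (adjusted p = 0.17) and 0.24 ± 0.10 in control (adjusted p = 0.12).

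AT3G15536 (3:5260723-5261322, plus strand, 600 bases, no gene overlapping) was also high in mta. It had 53.5, 55.3 and 50.3 CPM in mta drought and 25.7, 32.4 and 32.9 CPM in mta control, against 1.14, 0.822 and 0.675 CPM in WT drought and 3.79, 5.05 and 2.8 CPM in WT control. All 4 groups were separate, with mta drought highest and WT drought lowest. The log2 fold change of mta over WT was 5.87 ± 0.28 in drought (adjusted p = 2.71e-08) and 2.89 ± 0.23 in control (adjusted p = 5.75e-06). Drought raised it by 0.81 ± 0.20 in mta (adjusted p = 0.00799), and in WT it fell by 2.17 ± 0.29 (adjusted p = 0.00014).

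AT3G05955 (3:11586005-11586548, minus strand, 544 bases) was the third member higher in mta control. It had 4.29, 1.86 and 2.93 CPM in mta drought and 2.03, 2.14 and 3.17 CPM in mta control, against 0.455, 0.548 and 0 CPM in WT drought and 0 in the 3 WT control libraries. In control it was at least 9.97-fold higher in mta (adjusted p = 0.0154), and in drought the log2 fold change was 3.13 ± 0.67 (adjusted p = 0.0112). The control call was lost without WT control 1 and with a replicate block (adjusted p up to 0.0986), and the drought call without mta drought 1 (0.0546). Since WT was Col-0 itself, a lack of MTA and any other difference between the lines cannot be told apart.

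Some members were lower in mta drought than in WT drought. AT4G26095, on the same strand as CK1, a casein kinase gene, had 0.757, 0.532 and 2.69 CPM in mta drought against 8.87, 9.32 and 6.75 CPM in WT drought, a log2 fold change of -2.60 ± 0.42 (adjusted p = 0.00199). CK1 was also called lower in mta drought than in WT drought, and reads of the shared span were counted for both. AT2G37362, opposite ABCG2, had 3.79, 2.66 and 3.91 CPM in mta drought against 7.73, 8.22 and 7.2 CPM in WT drought (-1.15 ± 0.27, adjusted p = 0.0131). AT2G44255, opposite AT2G44260, had 3.79, 3.99 and 5.13 CPM against 7.51, 9.32 and 9.45 CPM in the same groups (-1.02 ± 0.25, adjusted p = 0.0153). The libraries of these 3 members did not overlap between mta drought and WT drought. The call of AT2G37362 was lost without mta drought 2 and with no filter (adjusted p up to 0.0635), and that of AT2G44255 with no filter and without WT drought 2 or 3 or mta drought 1 or 2 (up to 0.101). Other members were higher. U6acat (AT5G40395), an RNA of the minor spliceosome, overlaps the gene AT5G40400. It had 2.78, 2.39 and 1.22 CPM in mta drought against 0.455, 0 and 0.225 CPM in WT drought. The counts were 25 and 3, a ratio of 8.81 (exact interval 2.69 to 45.6, adjusted p = 0.0123). This call was lost without WT drought 3 or mta drought 1 (adjusted p up to 0.0594). Whether poly(A) libraries measure this spliceosomal RNA was not tested. AT1G66173 had 4.04, 1.86 and 3.17 CPM in mta drought against 0, 0.274 and 0.675 CPM in WT drought (3.13 ± 0.69, adjusted p = 0.00932).

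The drought effect itself differed between the genotypes for 7 of 255 members, in each case with the higher value in mta, where 19.6% of genes had a higher and 18% a lower effect in mta, and 2.44% and 0.0% of the other noncoding rows. At an unadjusted p under 0.05, 23 members had a higher and 25 a lower effect. DESeq2 called 7 and 4, and without WT control 3 the test called 11 and 13.

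AT3G21781 (3:7674904-7676519, plus strand) lies opposite UGT71B6, whose product glucosylates abscisic acid. It had 4.8, 4.52 and 4.64 CPM in mta drought against 1.22, 2.41 and 1.76 CPM in mta control, and 0.91, 0.548 and 1.35 CPM in WT drought against 2.53, 5.45 and 4.19 CPM in WT control. Drought libraries were above control in mta and below control in WT, with no overlap in either. The effect was 1.39 ± 0.37 in mta (adjusted p = 0.0114) and -2.04 ± 0.43 in WT (adjusted p = 0.00313), a difference of 3.42 ± 0.57 (adjusted p = 0.00615). UGT71B6 on the other strand had effects of 1.12 in mta and -0.57 in WT, a difference of 1.69 ± 0.19 (adjusted p = 5.1e-07).

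AT1G07887 (1:19963067-19964105, plus strand) shares its strand with HEI10, a meiotic crossover gene. Its level was 8.08, 13.3 and 12.7 CPM in mta drought against 1.22, 1.87 and 1.23 CPM in mta control, and 2.73, 2.19 and 2.93 CPM in WT drought against 2.53, 1.82 and 2.1 CPM in WT control. Only the mta groups were separate. It rose by 2.98 ± 0.30 in mta, with 0.28 ± 0.33 in WT (adjusted p = 0.599), and the difference was 2.71 ± 0.45 (adjusted p = 0.00615). HEI10 had a difference of 1.41 ± 0.37 (adjusted p = 0.0043).

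AT5G36002, opposite AT5G36001, which had no counts, stood at 3.28, 1.86 and 3.91 CPM in mta drought against 5.47, 5.09 and 5.63 CPM in mta control, and at 0.228, 0.548 and 0.45 CPM in WT drought against 7.58, 5.66 and 5.59 CPM in WT control. It fell in both genotypes and further in WT, by 0.83 ± 0.29 in mta and by 3.90 ± 0.40 in WT, a difference of 3.07 ± 0.52 (adjusted p = 0.00615). AT1G69572, opposite AT1G69570, had 8.83, 9.04 and 7.57 CPM in mta drought against 4.66, 4.02 and 6.86 CPM in mta control, and 3.64, 3.29 and 2.93 CPM in WT drought against 6.67, 5.45 and 8.39 CPM in WT control. It rose by 0.69 ± 0.25 in mta (adjusted p = 0.0453, lost under most alternatives) and fell by 1.00 ± 0.27 in WT (adjusted p = 0.0147, up to 0.106 with no filter or without WT drought 3), a difference of 1.69 ± 0.37 (adjusted p = 0.0336). AT2G41312 had 1.01, 1.06 and 2.2 CPM in mta drought against 2.23 to 3.34 CPM in mta control, and 0, 0.274 and 0.225 CPM in WT drought against 3.03 to 3.97 CPM in WT control. Its difference of 3.24 ± 0.78 (adjusted p = 0.0493) was lost under most alternatives. The seventh, AT1G07128 opposite STN1, differed by 1.18 ± 0.28 (adjusted p = 0.049) and is named after its value was seen.

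Peaks of RNA bound by the m6A antibody were read on the strand of each member, and a member was counted in a group if at least 2 of its 3 libraries had a peak overlapping it by 1 base or more. Peaks lay on 50 members in mta drought and 50 in mta control, against 93 in WT drought and 68 in WT control. The control counts did not differ when a peak was asked for in 3 of 3 libraries, at 30 in mta control and 30 in WT control. Without WT control 1 or 2 the WT control count was also 30, and without mta control 1 or 3 the mta control count was 31 or 30. In drought the mta count was 32 at 3 of 3 libraries and 33 without mta drought 3. Of the 375 members these were 13.3% and 13.3% in mta, and 24.8% and 18.1% in WT drought and control. Of the 255 tested members 17.3% and 18% had a peak in mta drought and control, and 29.4% and 22.7% in WT drought and control. The shares of tested genes with a peak were 44.0% and 48.9% in mta drought and control, and 58.5% and 55.7% in WT drought and control. Among members not on a gene's strand, 6 had a peak in mta and not WT and 42 in WT and not mta in drought, and 9 and 23 in control. Peaks per library over the whole genome numbered 7746 to 10357 in mta drought, against 11641 to 12065 in WT drought. They numbered 8374 to 12145 in mta control and 8269 to 12228 in WT control. The same split was not counted over genes, so it is not read as particular to the members. Of the 320 members not on a gene's strand, the 79 with a peak in any group had a median of 5.80 CPM and 1835 bases, against 2.16 CPM and 1083 bases for the 241 with none. The part of expression level in the difference between genotypes was not tested.

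The summits lay toward the 3′ end. For the 79 bearing members that are not on a gene's strand, the median summit position was 0.856 of the length from the start, with 48 in the last 25% of the length, 14 and 9 in the 25% steps before it, 5 in the first 25% and 3 before the annotated start. Of these members, 4 overlap no gene and had a peak in all 12 libraries, namely AT1G08507, AT1G79075, AT2G45023 and AT3G29644, with median fold enrichments, the authors' own values, of 9.97, 5.45, 9.59 and 10.9. These and the next members were chosen after their peaks were seen.

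**Figure D5:**
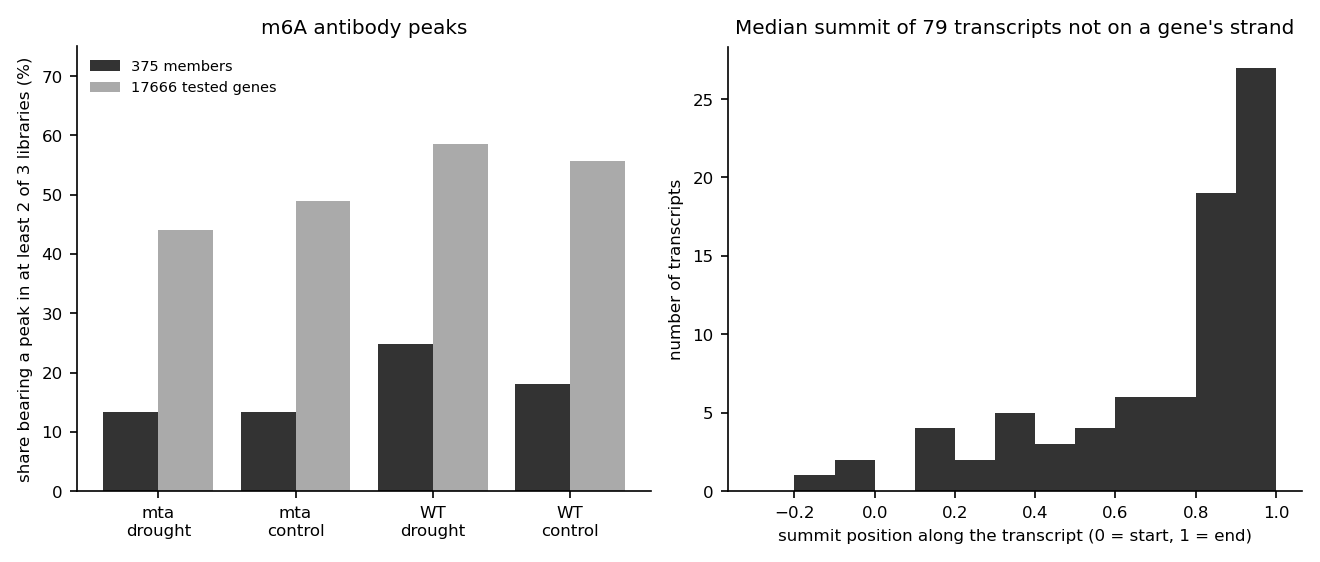
Left, share (%) of the 375 transcripts (black) and of the 17666 tested genes (grey) with an m6A antibody peak in at least 2 of 3 libraries of each group. Right, number of transcripts (y axis) by the position of their median summit, for 79 transcripts not on a gene's strand, with a median position of 0.856 where 0 is the start and 1 the end.

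AT5G24735 (5:8468331-8469262, minus strand, 932 bases) and AT1G52347 (1:19496461-19497686, plus strand, 1226 bases) had a peak in 0 of 6 mta libraries and in 6 of 6 WT libraries. AT5G24735 was at 67.1, 81.4 and 71.1 CPM in mta drought and 29.8, 49.5 and 42 CPM in mta control, against 58.5, 55.1 and 65.9 CPM in WT drought and 34.5, 45.5 and 28 CPM in WT control. The mta drought libraries lay above the WT drought libraries and the control libraries overlapped, with a log2 fold change of mta over WT of 0.29 ± 0.23 in drought (adjusted p = 0.386) and 0.16 ± 0.23 in control (adjusted p = 0.771). AT1G52347 averaged 8.2 ± 0.575 CPM in mta drought and 4.69 ± 1.61 CPM in mta control, against 5.96 ± 2.65 CPM in WT drought and 4.57 ± 2.89 CPM in WT control (SD, n = 3), with adjusted p = 0.458 in drought and 0.874 in control for mta over WT. The peaks in the WT libraries had a median fold enrichment of 2.90 on AT5G24735 and of 7.58 on AT1G52347 in the authors' lists. AT1G72852 and AT5G03255 had a peak in 0 of 6 mta libraries and in 5 of 6 WT libraries. The median summit for AT5G03255 lay before its annotated start, at -0.0215 of the length. That peak was counted through its overlap only and may not belong to the transcript.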

How the data were processed

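Per the labels' protocols, poly(A) RNA of rosette leaves was fragmented, 10% was kept as input before m6A immunoprecipitation, and directional libraries were sequenced on a NovaSeq X Plus. The authors deposited raw counts per gene and, in separate tables, raw counts per noncoding RNA for each input library. Per the file headers these came from featureCounts 2.0.1 with strand, on whole spans of TAIR10 features. The submitters' processing notes also name STAR, MACS2, SAMtools, bedtools, cutadapt, Trim Galore and FastQC, with roles and settings not given in the sources used here. For the immunoprecipitated libraries the authors deposited peak lists per library and strand, with a fold enrichment (a ratio) and −log10 p and −log10 q values per peak.

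From these, the noncoding counts were scaled by the total of each gene table times its TMM factor (CPM means counts per 1e6 of this effective total). Low rows were removed with filterByExpr at a minimum count of 10 and a minimum total of 15, and 337 noncoding rows were tested with edgeR 4.0.16 (R 4.3.3, limma 3.58.1) by quasi-likelihood F tests on a model with 1 mean per group, with Benjamini-Hochberg adjustment over all 337 rows and a threshold of 0.05. Genes were tested in the same way in their own table. Log2 fold changes are given ± SE, and CPM ± SD over 3 libraries. On simulated counts for drought in WT, 84.2% of 2-fold and 98.9% of 4-fold changes were recovered over 315 noncoding rows. The same spread was set for every row and not estimated from these data, and 95 and 93 rows were changed. These rates therefore do not give the power for the real members. Of the unchanged rows 3.15% were called. Alternatives were DESeq2 1.42.0, other scalings and filters, a joint fit with the genes, a replicate block, each library left out, subsets of the members, and other peak criteria. The choice of 2 of the subsets was made after seeing the data. Named were members of known noncoding families, up to 6 rising and 6 falling members with the largest change past the threshold and no overlap between libraries for each contrast, the 5 with the highest level per length, members at the count limit, and the genes overlapping named members. The members, gene lists and tests were chosen with earlier results of these data known. The polysomal and uncapped RNA tables list none of the members and were not used here. Python 3.11.15 read the tables.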

Additional observations from a re-analysis of the deposited data

Results flagged for a closer look

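For 6 of the 7 members called, the effect of drought differed between mta and WT by a test of the difference itself (edgeR quasi-likelihood, mta effect minus WT effect, log2). The difference was 3.42 for AT3G21781, 3.24 for AT2G41312, 3.07 for AT5G36002, 2.97 for AT3G15536, 2.71 for AT1G07887 and 1.69 for AT1G69572. AT3G21781 and AT3G15536 rose in mta and fell in WT. AT1G69572 did so too, but its rise in mta was lost under most alternatives (adjusted p up to 0.327) and its fall in WT under 2 (up to 0.106). The seventh member, AT1G07128, had a difference of 1.18 and is outside the 6 named by size. AT5G36002 fell less in mta than in WT, and AT1G07887 was called in mta and not in WT. The call of AT2G41312 was lost under most alternatives, with adjusted p between 0.0048 and 0.123.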

How the results depend on the processing

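Counts of members are given as higher and lower. With the noncoding tables' own TMM and totals, drought in WT gave 43 higher, and the difference of the drought effects gave 1 lower. The joint fit with the genes gave 16 and 1 for mta against WT in control, 47 and 31 in drought, and 22 and 22 for the difference. DESeq2 gave 11 higher in control and 4 lower for the difference, with 63.6% of its difference calls higher against 100%. No filter on low counts gave 7 and 2 in control and 4 and 2 for the difference. Removing the span trend gave 5 higher in control, 28 lower in drought and 4 and 4 for the difference, and moved the median log2 fold change by 0.16 for drought in WT, -0.20 for drought in mta, -0.33 for mta against WT in drought and -0.34 for the difference. Members that overlap no gene gave 37 and 6 for drought in mta, 26 and 13 for drought in WT, 13 and 1 for mta against WT in drought, and 2 higher for the difference.

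Leaving out 1 library at a time gave 3 to 15 higher and 0 to 1 lower in control, 18 to 40 higher and 3 to 22 lower in drought, and 4 to 11 higher and 0 to 13 lower for the difference. The highest of each came without WT control 3. Leaving out 1 library, AT2G08770 ranged from -1.04 to 2.80 for mta over WT in control and AT3G06355 from -0.74 to 1.78 for drought in WT, with the positive end without WT control 3. Each named value was counted once per alternative. Of the other such pairs of value and alternative, 1655 kept direction and call, 66 lost and 19 gained a call.

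The replicate numbers do not pair the libraries by label. Correlations of deviations in same-numbered libraries were -0.306 to 0.128, and 2 of 18 exceeded 0.1. With a replicate block the difference of the drought effects gave 4 higher.

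Members with a peak numbered 32 in mta drought, 30 in mta control and 30 in WT control when 3 of 3 libraries were asked for. With a −log10 q of at least 10 they numbered 15 and 18 in mta drought and control, and 40 and 32 in WT drought and control. Without 1 library they numbered 33 to 45 in mta drought, 30 to 49 in mta control and 30 to 68 in WT control. The cause of each shift was not tested. Depth limits members under 1 CPM.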
